A study of Mus musculus with 6 samples.

Results

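Upper layer neuron identity was read from 9 genes whose products mark or shape the neurons of the upper cortical layers: Cux1, Cux2, Pou3f1, Pou3f2, Pou3f3, Rorb, Mef2c, Mdga1 and Rasgrf2. They were chosen by name, with earlier results of these data known. Every probe set annotated to 1 of these genes alone was taken, which gave 31 of the 45037 probe sets on the array. The 6 Affymetrix arrays hold RNA of mouse dorsal telencephalon, from which the cerebral cortex forms, dissected at E14.5 from embryos of C57BL\6 background that are all labelled male. There were 3 wild-type arrays (WT) and 3 arrays of conditional knockouts (cKO) that lack the histone methyltransferase ESET, the product of Setdb1, in cells where Emx2Cre was active; Emx2 is expressed in progenitors of the dorsal forebrain. The sources used here do not say if WT embryos had the Cre allele, so effects of that allele and of the deletion cannot be told apart. The dissected tissue also holds cells of other origin, such as vessel cells and microglia. In such bulk samples, fewer cells of a type and less RNA per cell cannot be told apart.

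The cortex is built from the inside out. Radial glia and intermediate progenitors first produce deep layer neurons and later the neurons of the upper layers, which connect cortical areas with one another. Cux1 and Cux2 are homeodomain factors that act on dendrites and synapses of upper layer neurons. Pou3f2 and Pou3f3 (also called Brn2 and Brn1) are POU factors that act in upper layer production and migration and are already made in progenitors, and Pou3f1 (Oct6) is their relative, made in projection neurons. Rorb is a nuclear receptor of layer IV neurons, Mef2c a MADS-box factor of neuronal maturation and migration, Mdga1 a surface protein that binds neuroligins, and Rasgrf2 an exchange factor for Ras and Rac found in upper layer neurons of the mature cortex. At the stage sampled, deep layer neurons have been born and upper layer production is only starting.

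Intensities are in the linear units that the authors deposited, and ± is the SD of 3 arrays. Log2 fold changes are cKO minus WT of log2(intensity + 16), with the standard error (SE) and 95% interval of a limma model fitted to all 45037 probe sets. Adjusted p is the Benjamini-Hochberg value over all of them, with a threshold of 0.05. For genes of the other lists, each read by its brightest probe set, the same model was fitted to 18193 genes. Their SE, p and adjusted p are from that fit, so their calls are not made at the same cutoff as those of probe sets. The labels name no litters, and p-values measure the spread between these arrays. An exact permutation test of 3 arrays against 3 cannot go below p = 0.1 (two-sided). Levels of different probe sets are not compared with one another, because each has its own response. Summed intensities of a list mostly follow its brightest probe sets and do not stand for the list as a whole.

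Arrays numbered 3 stood apart in both groups. On WT 3, though labelled male, Xist read 17294 and Eif2s3y 22.2, where WT 1 read 59.0 and 1927, and cKO 3 had both signals (8811 and 961). Erythroid genes summed to 69349 on WT 3 and 73962 on cKO 3, and to between 11212 and 17175 on the other 4 arrays. Log2 fold changes without these arrays are given with each of the 9 genes. The brightest Setdb1 probe set read 633 ± 115 in cKO and 1126 ± 81.9 in WT, with no overlap (adjusted p = 0.237 over all probe sets). The deleted exons are not named in the labels, so this probe set may lie outside them.

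Of the 9 genes, Mef2c and Rorb had the lowest values in cKO relative to WT, and 1 probe set of Rasgrf2 was higher. That Rasgrf2 probe set passed the threshold, and 0 of the 31 probe sets were lower past it. Over the whole array 0.275% of probe sets passed, with 0.224% higher and 0.0511% lower in cKO. At an unadjusted p under 0.05, 7 of the 31 were lower and 1 higher, where 3.33% of all probe sets were lower and 4.57% higher. These 7 are 4 of the 5 probe sets of Mef2c, 2 of the 3 of Rorb and 1 of the 3 of Cux2. Groups did not overlap for 7 lower and 1 higher of the 31, against 6.07% and 7.47% of all probe sets. Log2 fold changes were below 0 for 26 of the 31, where 46.9% of all probe sets were below 0. The median was -0.26, beside 0.02 for all probe sets. Probe sets of 1 gene are read on the same 6 arrays and do not count as separate observations. The genes were also chosen with earlier results of these data known, so these counts and the median only describe them.

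**Figure D1:**
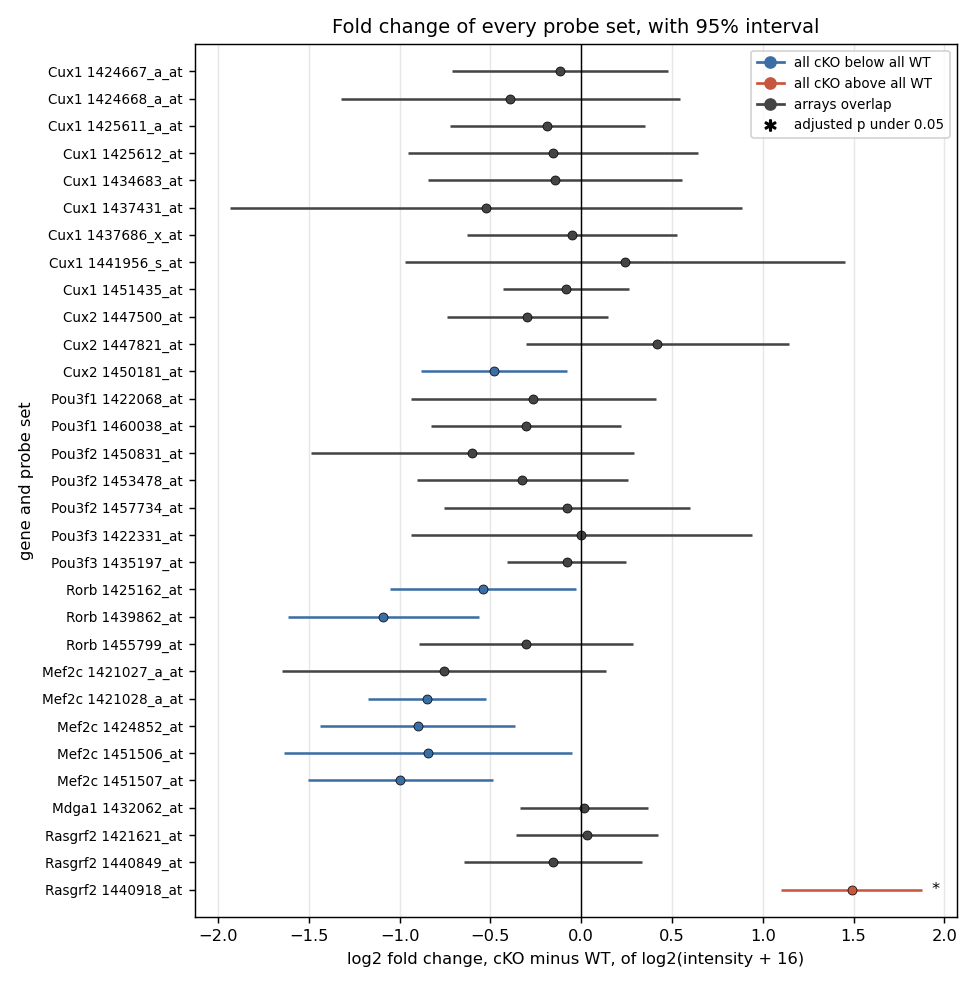
Log2 fold change (cKO minus WT, horizontal axis) of each of the 31 probe sets of the 9 genes, with its 95% interval from limma. Blue marks probe sets whose cKO arrays all lie below the WT arrays, red those whose cKO arrays all lie above, grey those that overlap, and the asterisk the 1 probe set past the threshold, Rasgrf2 1440918_at at 1.49. All 5 Mef2c probe sets lie between -0.996 and -0.757.

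The members of this set differ in their promoters, and 3 of them are shown because the array values of those genes set them apart. The windows are the 250 bases before the first listed start of each gene, on the gene's own strand, from RefSeq (GRCm38.p6). They are written 5′ to 3′, with each CpG dinucleotide in capitals. Rorb lies at chr19:19111197-19111446 (minus strand), Mef2c at chr13:83503784-83504033 (plus strand) and Rasgrf2 at chr13:92131829-92132078 (minus strand).
Rorb: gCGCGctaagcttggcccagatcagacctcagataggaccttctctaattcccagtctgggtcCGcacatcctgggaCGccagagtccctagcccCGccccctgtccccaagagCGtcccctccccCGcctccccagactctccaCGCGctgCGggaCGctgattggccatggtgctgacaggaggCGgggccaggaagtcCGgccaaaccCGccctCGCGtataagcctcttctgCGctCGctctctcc
Mef2c: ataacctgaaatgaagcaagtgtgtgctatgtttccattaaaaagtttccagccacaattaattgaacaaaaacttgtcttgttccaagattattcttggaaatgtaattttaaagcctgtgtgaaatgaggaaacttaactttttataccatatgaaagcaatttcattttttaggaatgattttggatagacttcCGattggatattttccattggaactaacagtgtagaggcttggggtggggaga
Rasgrf2: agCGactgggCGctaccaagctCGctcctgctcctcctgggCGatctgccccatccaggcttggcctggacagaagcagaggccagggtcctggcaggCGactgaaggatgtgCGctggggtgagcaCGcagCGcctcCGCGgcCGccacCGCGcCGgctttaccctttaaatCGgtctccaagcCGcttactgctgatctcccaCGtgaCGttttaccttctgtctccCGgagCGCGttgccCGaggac
The windows of Rorb and Rasgrf2 are CpG-rich and that of Mef2c is not. Over the full window, from 250 bases before to 50 after the start, they hold 20, 28 and 1 CpG, where the median over 32851 mouse windows is 7. Windows were found for 8 of the 9 genes, 12 in all, as Mef2c has 3 listed starts and Rorb and Cux2 have 2 each. Both other Mef2c starts hold 10 and 4 CpG, and the second Rorb start 5. Of the 12 windows, 0 held the POU octamer ATGCAAAT, which occurs in 1.74% of all windows on either strand. A pattern that takes in MEF2 sites and other sequences (CTA, any 4 bases, TAG) lay in 0 of the 12 and in 3.69% of all. The hexamer AGGTCA, which nuclear receptors bind, lay in 2 of the 12, both at later starts of Mef2c, and in 16.3% of all windows. A match is a description of letters only, and its absence from these windows says nothing of the factors.

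Rorb encodes the retinoid-related orphan receptor beta, a DNA-binding protein of layer IV neurons that is also made in thalamus and retina. On its brightest probe set, 1439862_at, WT 1, WT 2 and WT 3 read 516.5, 309 and 464, and cKO 1, cKO 2 and cKO 3 read 210.2, 184 and 174. Every cKO array was below every WT array, and the cKO arrays lay close together. The means were 429.8 ± 108 in WT and 189 ± 18.7 in cKO, a ratio of 0.441. The log2 fold change was -1.09 (SE 0.22, interval -1.62 to -0.56), which did not pass the threshold (adjusted p = 0.187). Without both arrays numbered 3 it was -0.97.

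The other two Rorb probe sets pointed the same way by less. On 1425162_at the WT arrays read 248, 142 and 181 and the cKO arrays 113, 129.7 and 127. Groups did not overlap, though WT 2 lay close to cKO 2, and the log2 fold change was -0.54 (SE 0.21, adjusted p = 0.607). On 1455799_at the WT arrays read 265, 159.8 and 234 and the cKO arrays 152, 148 and 223. Here cKO 3 lay within the WT range, and the log2 fold change was -0.30 (SE 0.25, interval -0.89 to 0.29). Without both arrays numbered 3 these probe sets came to -0.58 and -0.42. Rora, the relative of Rorb with roles in cerebellum and thalamus, was at 0.21 (SE 0.19).

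Mef2c encodes a transcription factor that is made in young cortical neurons and is also known from muscle, endothelium and microglia. All 5 of its probe sets were lower in cKO on average, at log2 fold changes between -0.996 and -0.757, and 0 passed the threshold. The smallest p was on 1421028_a_at, where WT arrays read 682, 779 and 754 and cKO arrays 389.7, 409.8 and 408. The groups lay far apart relative to their spread, at 738 ± 50.2 and 402 ± 11.0. The log2 fold change was -0.85 (SE 0.13, interval -1.17 to -0.53, adjusted p = 0.101), and -0.84 without both arrays numbered 3. This probe set passed with a pseudocount of 64 (adjusted p = 0.0300), with dim probe sets left out (0.0227) and with eBayes set to trend and robust (0.0198). It did not pass with quantile normalization (adjusted p = 0.0939), with arrays centred on their medians (0.187) or with a pseudocount of 1 (0.165). Nor did it pass with array weights (0.0831), with the replicate block (0.239) or with the arrays numbered 3 as a block.

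On the brightest Mef2c probe set, 1424852_at, WT arrays read 2252, 2334 and 1611 and cKO arrays 1323, 1089.6 and 884. Groups did not overlap, and in each group the array numbered 3 was lowest. The log2 fold change was -0.90 (SE 0.22, interval -1.44 to -0.36, adjusted p = 0.309). On 1451507_at WT arrays read 1308, 1143 and 819.7 and cKO arrays 532, 589 and 472, again without overlap, at -0.996 (SE 0.21, adjusted p = 0.222). On 1451506_at the groups parted by less. WT arrays there read 944, 1609.7 and 1009 and cKO arrays 745, 412 and 834, at -0.84 (SE 0.33, adjusted p = 0.598). The fifth, 1421027_a_at, overlapped, since cKO 3 at 1256 lay above WT 1 at 1010.4, and its log2 fold change was -0.76 (SE 0.37, adjusted p = 0.726). On that probe set the arrays numbered 3 were the highest of their groups, where on 1424852_at they were the lowest. Without both of them the 5 Mef2c probe sets ran from -1.13 (1451506_at) to -0.78 (1421027_a_at).

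Markers of other cells that make Mef2c were also lower in part. Of 12 measured endothelial genes, 11 were below 0 with a median log2 fold change of -0.33, and their summed intensity was between 2425 and 2729 in WT and between 1860.05 and 2187 in cKO. Tie1 and Emcn, both endothelial surface proteins, were at -0.85 and -0.46, and Esam and Cldn5, proteins of endothelial junctions, at -0.44 and -0.38, all without overlap and short of the threshold. Of 8 pericyte genes 5 were below 0 (median -0.17), with summed intensities between 2095 and 2217 in WT and between 1488 and 1766 in cKO. In these sums Rgs5 was brightest, with means of 1130 in WT and 739 in cKO. Abcc9 was lowest at -1.05, Rgs5 was at -0.60 and Kcnj8 at -0.30, while Anpep was at 0.94, from a dim WT mean of 4.13. Of 10 microglial genes 7 were below 0 (median -0.18), with sums that overlapped, from 1659.5 to 1950.3 in WT and from 1295 to 1800.5 in cKO. The microglial receptors P2ry12, Cx3cr1 and Trem2 were at -0.44, -0.47 and -0.62, and the complement gene C1qa at -0.36. Of 10 muscle genes 3 were below 0, and their sums overlapped, from 378 to 763 in WT and from 316 to 1332 in cKO. The myogenic factor Myod1 was at 0.70, Myf5 was too dim to read a change (means of 0.796 in WT and 4.61 in cKO), and the muscle filament genes Des and Acta1 at 0.68 and -0.74. By limma 0 genes of these 4 lists passed the threshold, in the gene table, where each of 18193 genes is read by its brightest probe set and 0.627% of genes passed. At an unadjusted p under 0.05, 5 of the 12 endothelial genes were lower and 0 higher, beside 4.39% and 5.17% of all genes. Of the 8 pericyte genes 2 were lower and 1 higher, and of the microglial and muscle genes 0 reached it. No marker of these lists was listed at 0 on any array, but without detection calls this does not show that each was detected. The part of these cells in the Mef2c values was not tested.

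Of the other MEF2 genes, Mef2a was at 0.03 (SE 0.15) and Mef2d at 0.08 (SE 0.30), and Mef2b, at 26.0 in WT and 15.8 in cKO, was dim. Hdac4, Hdac5, Hdac7 and Hdac9, deacetylases that bind MEF2 proteins, were between -0.12 and 0.28. Whether these fold changes differ from that of Mef2c was not tested.

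**Figure D2:**
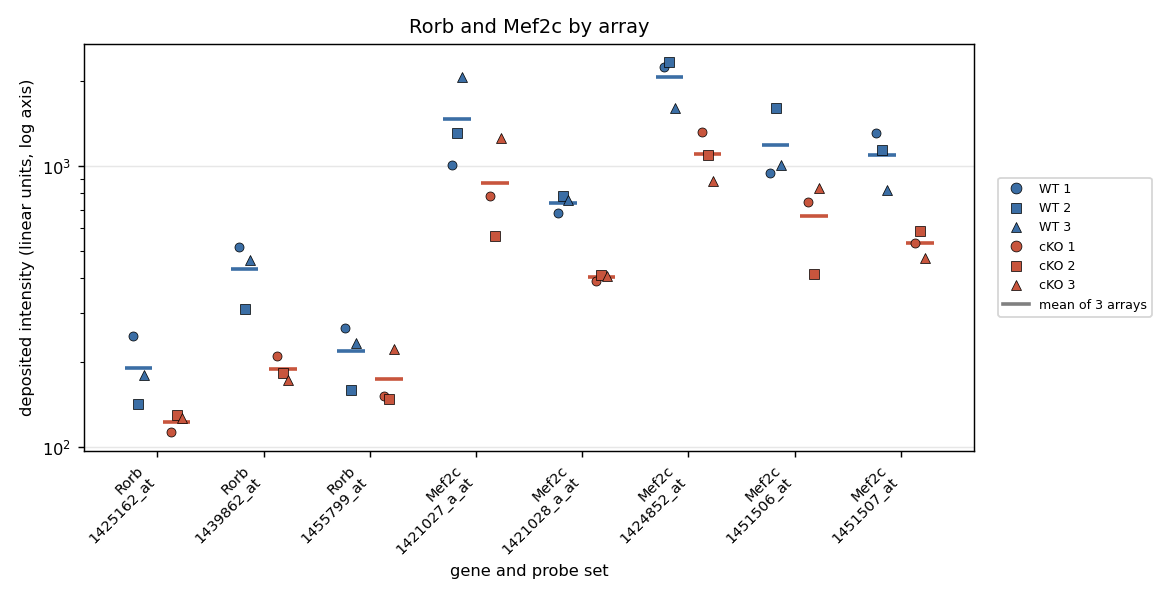
Deposited intensity (log axis) of the 3 Rorb and 5 Mef2c probe sets on each array, WT in blue and cKO in red, with the marker shape giving the array number and the bar the mean of 3 arrays. On 2 Rorb and 4 Mef2c probe sets every cKO array lies below every WT array.

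Rasgrf2 had 3 probe sets with unlike values. On 1440918_at the WT arrays read 17.4, 10.6 and 13.6 and the cKO arrays 70.6, 74.7 and 57.9. All 3 cKO arrays were above all WT arrays, at means of 67.8 ± 8.75 and 13.9 ± 3.39. The log2 fold change was 1.49 (SE 0.16, interval 1.10 to 1.88) and passed the threshold (adjusted p = 0.0303). The WT mean is dim, below the pseudocount of 16, so the size of the fold change depends on that pseudocount and no ratio of intensities is given. It was 2.23 with a pseudocount of 1, which ended the call (adjusted p = 0.0587). The call was also lost with quantile normalization (adjusted p = 0.0612), with arrays centred on their medians (0.0507), with trend and robust settings (0.0705), with the replicate block (0.153) and without both arrays numbered 3 (0.274). The call was kept with a pseudocount of 64 (adjusted p = 0.0373), with array weights (0.0229) and with the arrays numbered 3 as a block. In the 6 fits that left out 1 array the log2 fold change ran from 1.41 to 1.58 and 0 passed (adjusted p = 0.0898 to 0.169).

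The brightest Rasgrf2 probe set, 1440849_at, read otherwise. WT arrays read 112, 71.5 and 87.8 and cKO arrays 66.4, 74.7 and 96.0, with overlap and a log2 fold change of -0.16 (SE 0.20, interval -0.65 to 0.33), or -0.29 without both arrays numbered 3. The remaining probe set, 1421621_at, was between 2.35 and 8.10 on all 6 arrays, too dim to read a change. Which transcripts each probe set reads is not given in the annotation used here. Averaged over its probe sets, Rasgrf2 came to 0.45 (adjusted p = 0.375 over genes), against -0.16 for the brightest. Rasgrf1, its close relative, was at -0.27 (SE 0.23).

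Mdga1, a glycosylphosphatidylinositol-anchored protein of upper layer and Cajal-Retzius neurons, had 1 probe set. WT arrays read 119.7, 103.5 and 99.4, and cKO arrays 102, 120.2 and 104. The groups overlapped, with a log2 fold change of 0.01 (SE 0.15, interval -0.34 to 0.37), or -0.0086 without both arrays numbered 3. Its paralogue Mdga2, which also binds neuroligins, read 178, 206 and 237 in WT and 77.3, 40.2 and 71.0 in cKO. Mdga2 did not overlap and came to -1.52 (SE 0.23), short of the threshold (adjusted p = 0.0565 over genes). Neuroligins Nlgn1, Nlgn2 and Nlgn3 were at 0.02, -0.03 and 0.27.

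**Figure D3:**
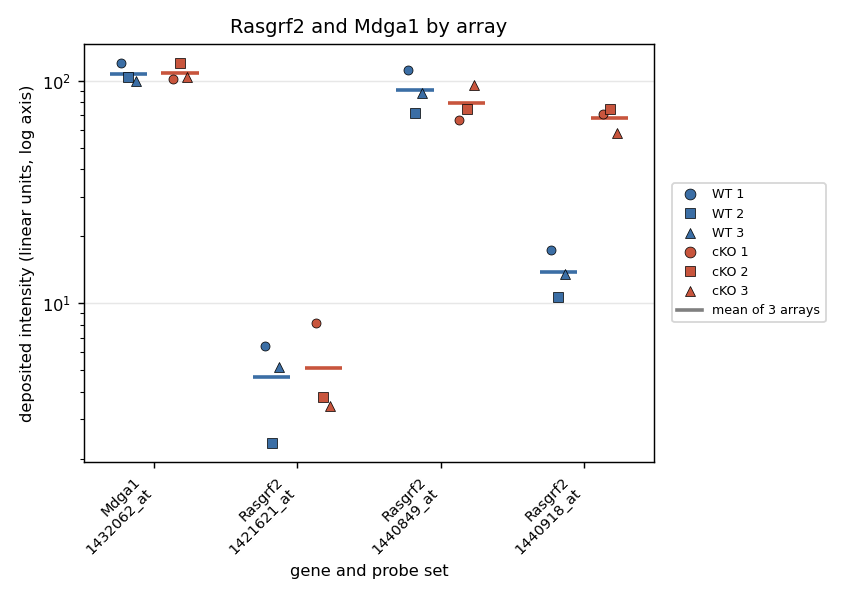
Deposited intensity (log axis) of the Mdga1 probe set and the 3 Rasgrf2 probe sets on each array, WT in blue and cKO in red, with the marker shape giving the array number and the bar the mean of 3 arrays. On Rasgrf2 1440918_at the cKO arrays read 57.9 to 74.7 and the WT arrays 10.6 to 17.4, while the groups overlap on the other probe sets shown.

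Cux1 had 9 probe sets and on 9 of 9 the groups overlapped. Log2 fold changes ran from -0.53 to 0.24, with 8 below 0. The brightest, 1451435_at, was also the tightest. WT arrays there read 1061, 997 and 1237 and cKO arrays 1051, 1024 and 1022, a log2 fold change of -0.08 (SE 0.15, interval -0.43 to 0.27). The intervals of the other Cux1 probe sets were wider, most of all on 1437431_at, where WT arrays read 188, 158 and 413 and cKO arrays 106, 88.6 and 384. Both arrays numbered 3 were far above the rest on it, and the log2 fold change was -0.53 (SE 0.59), or -0.74 without those arrays (adjusted p = 0.451). Without them the 9 probe sets ran from -0.74 to 0.25, with 1451435_at at 0.012.

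The arrays numbered 3 were highest in both groups on 8 of the 9 Cux1 probe sets. Over all 31 probe sets of the 9 genes this held for 13, or 41.9%, and over the whole array for 24.4%. The other 5 are 1 each of Cux2, Pou3f1, Pou3f2, Pou3f3 and Mef2c. The arrays numbered 3 are those with the high Xist and erythroid signals, and the part of either in the Cux1 values was not tested.

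Cux2, whose transcript is found in upper layer neurons and in part of their progenitors, had 3 probe sets that did not share a direction. On 1450181_at WT arrays read 307, 248 and 345 and cKO arrays 202, 200.4 and 223. Every cKO array was below every WT array, at a log2 fold change of -0.48 (SE 0.17, interval -0.88 to -0.08), short of the threshold (adjusted p = 0.528). On the brightest, 1447500_at, WT arrays read 1862, 1332 and 1728 and cKO arrays 1169, 1343 and 1464. WT 2 lay among the cKO arrays, and the log2 fold change was -0.30 (SE 0.18, interval -0.74 to 0.15). On 1447821_at the direction was opposite, at 0.42 (SE 0.30, interval -0.30 to 1.14), with overlap. In the same order, the values without both arrays numbered 3 were -0.42, -0.33 and 0.35. The homeodomain relative Onecut2 was at -0.02, Onecut1 was too dim to read a change (means of 13.7 in WT and 14.6 in cKO), and Satb1, a chromatin organizer, was at 0.41 (SE 0.15, adjusted p = 0.424) without overlap.

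The POU genes were slightly lower in cKO on most probe sets, within the spread of the arrays. Pou3f1 came to -0.30 (SE 0.22) on its brightest probe set, where WT arrays read 1387, 1150.3 and 1786 and cKO arrays 1053, 1031 and 1382. The cKO 3 array lay above WT 2 there. Its other probe set was at -0.26 (SE 0.28). The values without both arrays numbered 3 were -0.27 and -0.20.

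Pou3f2 had 3 probe sets, at -0.60 (SE 0.37), -0.32 (SE 0.24) and -0.08 (SE 0.28), all with overlap. On the first of these, 1450831_at, WT 3 was high, at 657 against 404 and 227 on the other WT arrays, and the cKO arrays read 249, 216 and 306. Without both arrays numbered 3 that value was -0.37. On the brightest, 1453478_at, WT arrays read 752, 554 and 438 and cKO arrays 523, 476 and 366. That probe set, 1453478_at, was at -0.36 without both arrays numbered 3, and 1457734_at at -0.31.

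Pou3f3 read evenly across arrays on its brightest probe set. On this one, 1435197_at, WT arrays read 10574, 9143 and 10003 and cKO arrays 9041, 9600.0 and 9418, a log2 fold change of -0.08 (SE 0.14, interval -0.41 to 0.25). Its other probe set was at -0.0005 (SE 0.39), with arrays from 89.0 to 255. Both Pou3f3 probe sets were near these values without both arrays numbered 3, at -0.08 and 0.06. A further probe set that the annotation gives to Pou3f3 and 2900092D14Rik together was left out by the rule, and came to -0.13 (SE 0.18). Pou3f4, the remaining member of the class, was at -0.003 (SE 0.34). Sox2 and Sox11, SOX factors that bind DNA beside POU factors, were at 0.17 and -0.08.

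**Figure D4:**
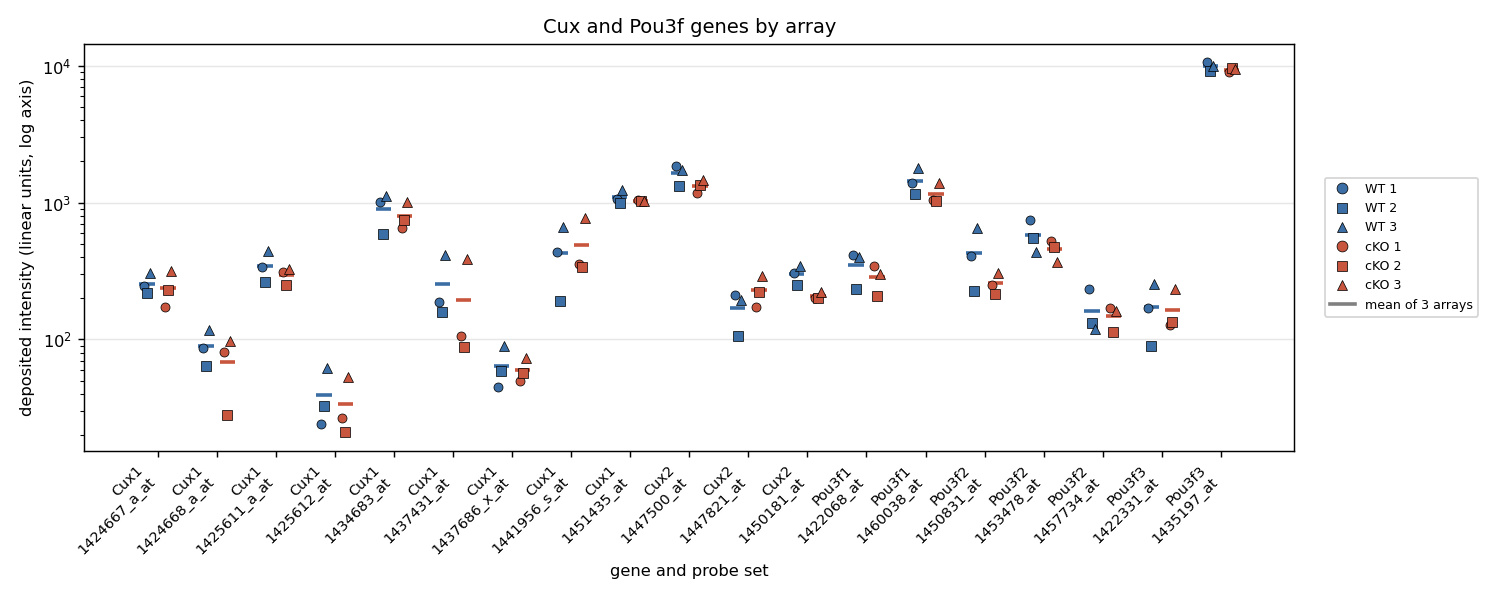
Deposited intensity (log axis) of the 19 probe sets of Cux1, Cux2, Pou3f1, Pou3f2 and Pou3f3 on each array, WT in blue and cKO in red, with the marker shape giving the array number and the bar the mean of 3 arrays. The groups overlap on 18 of them, and on Cux2 1450181_at every cKO array (200.4 to 223) lies below every WT array (248 to 345).

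Other genes of upper layer neurons did not share 1 direction. Of 18 genes in that list, 16 had a probe set of their own, and 0 passed the threshold over the 18193 genes, where 0.385% of genes were higher and 0.242% lower past it. At an unadjusted p under 0.05, 4 were lower and 1 higher, against 4.39% and 5.17% of all genes. The median was 0.01, as for all genes, with 7 genes below 0. Wnt7b, a Wnt ligand, was at -0.51 (SE 0.11), Kitl, the ligand of the receptor Kit, at -0.44 (SE 0.12), and Inhba, a subunit of activin, at -0.57 (SE 0.19). Unc5d, a netrin receptor of newborn upper layer neurons, was at -0.47 (SE 0.17), and Tle1, a corepressor, at 0.50 (SE 0.14). The groups of Wnt7b, Kitl, Inhba, Unc5d and Tle1 did not overlap. In the same table, 2 of the 9 genes, Rorb and Mef2c, were lower at an unadjusted p under 0.05 and 0 higher. These 2 were also the genes without overlap, all lower, where 7.64% of all genes were lower without overlap and 7.9% higher. Of the 9, 8 were below 0, where 48.8% of all genes were, with a median of -0.30 over the 9, beside 0.01 for all genes.

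Deep layer and Cajal-Retzius genes gave a frame for these values. Of 13 measured deep layer genes 10 were below 0, with a median of -0.33, and 2 passed the threshold over the 18193 genes, in opposite directions. Of all genes 48.8% were below 0 and 0.627% passed. At an unadjusted p under 0.05, 6 deep layer genes were lower and 1 higher by limma, beside 4.39% and 5.17% of all genes. Crym, which binds thyroid hormone, rose by 2.84 on the log2 scale (SE 0.30, adjusted p = 0.0179), and Nr4a2, an orphan nuclear receptor of subplate and deep neurons, fell by 1.18 on the log2 scale (SE 0.17, adjusted p = 0.0492). Lmo3 and Tle4 were at -0.88 and -1.07, without overlap and short of the threshold. The summed deep layer intensity was between 60291 and 66961 in WT and between 47367 and 57075 in cKO. Of 10 Cajal-Retzius genes, markers of the early neurons at the cortical surface, 8 were below 0 with a median of -0.75, and Reln, the secreted guide of neuronal migration, fell by 1.15 on the log2 scale (SE 0.14, adjusted p = 0.0266). Ndnf, Lhx5 and Trp73 were at -1.34, -1.05 and -1.14, short of the threshold. By limma 5 of the 10 Cajal-Retzius genes were lower at an unadjusted p under 0.05 and 0 higher. In the 6 fits that left out 1 array, Crym passed in 1 (without WT 2, adjusted p = 0.0183) and Nr4a2 and Reln in 0. All 3 calls were lost without both arrays numbered 3, where the log2 fold changes were 2.69, -1.20 and -1.22. The summed Cajal-Retzius intensity was between 8785 and 9497 in WT and between 4862 and 5844 in cKO. Reln alone had means of 6345 in WT and 2856 in cKO, so that sum largely follows this 1 gene. Mdga1, which Cajal-Retzius neurons also make, was at 0.01. Whether the upper layer genes differ from these lists was not tested.

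Progenitor and general neuron lists had medians nearer 0. Of 12 intermediate progenitor genes 5 were below 0 (median 0.13), and 0 passed, with Neurog1 at -1.32 (SE 0.19, adjusted p = 0.0543), Eomes at -0.63, Neurod4 at -0.64 and Nhlh1 at 0.77. Of 14 radial glia genes 8 were below 0 (median -0.03), and 0 passed. Sox9 was at 1.92 (SE 0.30, adjusted p = 0.0640), Emx2 at -0.83, Ddah1 at -0.48 and Ttyh1 at 0.50. Emx2 is also the gene that Emx2Cre is named for, and the part of the Cre allele in its value was not tested. Of 11 young neuron genes 8 were below 0 (median -0.09), and 0 passed, with Mapt at -0.54, Gap43 at -0.33, Syt1 at -0.25 and Slc17a7 at 0.43. At an unadjusted p under 0.05, 4 of the 37 genes of these 3 lists were higher and 7 lower by limma, beside 5.17% and 4.39% of all genes. The summed intensities of each list overlapped between the groups.

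**Figure D5:**
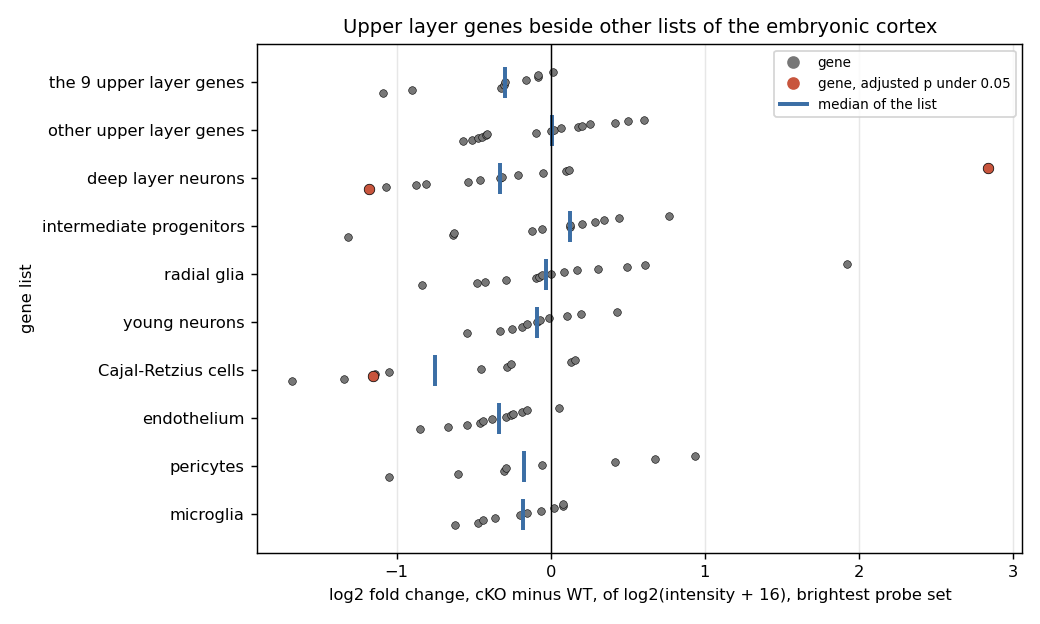
Log2 fold change (cKO minus WT, horizontal axis) of each gene on its brightest probe set, by list, with the list median as a blue bar and genes past the threshold in red. The 9 upper layer genes have a median of -0.30, the other upper layer genes 0.01, the deep layer genes -0.33 and the Cajal-Retzius genes -0.75.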

How the data were processed

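The authors deposited 1 linear intensity per probe set and array. The tool was the Affymetrix Expression Console, per the submitters' processing notes, with version and algorithm not given in the sources used here. Each array was made from 250 ng of total RNA, per the labels. With 2% trimmed from both ends, array means lay within 497 to 498, which shows a shared scaling. Array medians ran from 91.1 to 119 and differed by 0.33 (log2), so no further normalization was applied, and no detection calls were in the table.

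Log2(intensity + 16) was fitted for WT and cKO with limma 3.58.1 in R 4.3.3 (lmFit, eBayes), genotype as the only term, over 45037 probe sets. A gene table held the probe set of highest mean for each of 18193 genes. Genes were named from the platform annotation, where 34945 probe sets have 1 gene, 932 several and 9160 none. Named are all probe sets of the 9 genes, Setdb1, and of 17 other lists the 4 members of smallest p, which include cell type markers and sex-linked genes. Further relatives and partners of the 9 genes, and Unc5d, are named outside that rule, after their values were seen. The members and lists were chosen with earlier results of these data known. Alternatives were 2 normalizations, 2 pseudocounts, a filter, trend and robust settings, array weights, 2 blocks, leaving out arrays, and means over probe sets.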

Additional observations from a re-analysis of the deposited data

How the results depend on the processing

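The directions of Rorb, Mef2c and Rasgrf2 1440918_at were kept in every alternative that was run, also in each fit that left out 1 array. Counts of calls moved. Over all probe sets, 101 were higher and 23 lower past the threshold, and 70 and 44 of the genes. With arrays centred on their medians 41 probe sets were lower. A pseudocount of 1 gave 41 higher and 7 lower probe sets and 45 and 13 genes. A pseudocount of 64 gave 56 lower probe sets and 126 higher and 90 lower genes. Dropping the dimmer part of the probe sets, those under the median mean, gave 166 and 86 probe sets and 129 and 123 genes, and trend and robust settings gave 174 and 83 probe sets and 135 and 109 genes. With array weights 43 probe sets and 72 genes were lower. Without both arrays numbered 3 there were 8 higher and 0 lower probe sets and 8 and 0 genes, with fewer arrays. Among the 31 probe sets of the 9 genes, the count of higher calls went from 1 to 0 with quantile normalization, centring, a pseudocount of 1, trend and robust settings, and without both arrays numbered 3. It is 0 with dim probe sets left out because Rasgrf2 1440918_at is then not tested, which also takes both other counts of higher probe sets to 0. The count of lower calls went from 0 to 1, Mef2c 1421028_a_at, with a pseudocount of 64, with dim probe sets left out and with trend and robust settings. Without both arrays numbered 3, 12 of the 31 were lower without overlap, where 17.7% of all probe sets were, with 2 arrays against 2.

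With the replicate block, 7 probe sets were higher and 0 lower past the threshold, 16 genes were higher and 1 lower, and 0 of the 31 probe sets passed. The titles number the arrays without naming a litter or day. Deviations from the group means correlated at 0.0787, 0.194 and 0.410 for arrays numbered 1, 2 and 3. WT 2 and WT 3 correlated best with the cKO array of their own number, while WT 1 correlated better with cKO 2 (0.109). As the labels name no pairing, the arrays were taken as unpaired in the main fit, though those numbered 3 shared deviations.

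In the 6 fits that left out 1 array, 19 to 34 probe sets were higher and 0 to 2 lower past the threshold, and 25 to 44 genes higher and 1 to 9 lower. Of the 31 probe sets 0 passed in these fits, with an unadjusted p under 0.05 there were 4 to 8 lower and 1 higher (2.52% to 4.06% and 3.53% to 4.87% of all probe sets), and 7 to 15 were lower and 1 to 2 higher without overlap (8.62% to 12.4% and 11.3% to 13.8% of all). The 15 were counted without WT 2, where 11% of all probe sets were lower without overlap.

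Signs changed on probe sets with values near 0 or wide spreads. Mdga1 came to -0.038 with quantile normalization, -0.037 with centring, -0.015 with array weights and -0.0086 without both arrays numbered 3. Rasgrf2 1421621_at came to -0.020 with centring. Pou3f3 1422331_at came to 0.0072 with a pseudocount of 1 and 0.063 without both arrays numbered 3. Cux1 1437686_x_at came to 0.027 with array weights and 0.038 without both arrays numbered 3, and Cux1 1451435_at to 0.012 without both. Rasgrf2 as the mean of its probe sets was at 0.45. With 1 array left out, values ran from -0.052 to 0.083 for Mdga1, -0.070 to 0.092 for Rasgrf2 1421621_at, -0.37 to 0.32 for Pou3f3 1422331_at and -0.25 to 0.20 for Pou3f2 1457734_at. For Cux1 they ran from -0.33 to 0.085 (1424667_a_at), -0.65 to 0.025 (1424668_a_at), -0.42 to 0.12 (1425612_at), -0.42 to 0.031 (1434683_at), -0.23 to 0.16 (1437686_x_at), -0.24 to 0.62 (1441956_s_at) and -0.15 to 0.0049 (1451435_at). The cause of these shifts was not tested, and the fits that left out arrays also rest on fewer of them. The 3 arrays per group limit the precision, and so does dim signal, below the pseudocount of 16.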

Other observations

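The remaining lists describe the relatives and partners of the 9 genes and the tissue around the dissected cortex, with each gene on its brightest probe set. By limma 0 genes of these lists passed the threshold, where 0.627% of all genes passed. At an unadjusted p under 0.05, 5.17% of all genes were higher and 4.39% lower. Of 14 measured relatives, at an unadjusted p under 0.05 Satb1 was higher and Mdga2 lower, with a median log2 fold change of 0.03, and Pou6f1 was at -0.23. Of 13 partners and regulators 0 reached an unadjusted p under 0.05 (median 0.02).

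Of 11 ventral telencephalon genes 2 reached an unadjusted p under 0.05, both higher, where 5.17% of all genes were higher and 4.39% lower. Gad1, which makes the transmitter GABA, was at 0.48, and Nkx2-1, a ventral patterning factor, at 1.01 from a dim WT mean of 10.8. The interneuron factors Lhx6 and Dlx1 were at 0.19 and -0.26. Of 8 thalamus and diencephalon genes, Lhx9, a LIM homeodomain factor, was higher at 0.96 and Lef1, a mediator of Wnt signals, lower at -0.49, both at an unadjusted p under 0.05, while Irx1 was at -0.42 and Olig3 was too dim to read a change (means of 5.37 in WT and 13.7 in cKO). Of 10 meninges and mesenchyme genes 0 reached an unadjusted p under 0.05 (median 0.24). Prrx1 was at 0.42, Col1a2 at 0.48 (SE 0.69) and Foxd1 at 0.19, and Twist1 was too dim to read a change (means of 7.94 in WT and 12.7 in cKO). These genes summed to 3360 on cKO 3, but to 962 on cKO 1 and 1135 on cKO 2. In WT their sums were between 1067 and 1616. Of 8 erythroid genes 1 was higher at an unadjusted p under 0.05, the globin gene Hba-a1 at 0.99 from a dim WT mean of 9.72, with overlap, and Klf1, Epb42 and Alas2 were at 0.27, 0.39 and 0.23. Of 4 sex-linked genes 0 reached it, with Kdm5d, Uty and Eif2s3y at 1.61, 1.20 and 1.65 and Xist at -0.54.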
